A study of Mus musculus with 3 samples.

Results

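The 7 genes described here are the D-type cyclins Ccnd1, Ccnd2 and Ccnd3, their partner kinases Cdk4 and Cdk6, and the inhibitors Cdkn1a and Cdkn1b, of 19050 genes in the tables. They were chosen by name, with results of these data known. The difference of Ccnd2 between basal and luminal progenitor cells was among those results. Its levels in basal cells against the luminal classes are therefore given as a description with no test. Transcripts of all genes were counted in single sorted epithelial cells of the mouse mammary gland, in 3 droplet libraries called library 1, 2 and 3 here. All belong to 1 group without treatment, the number 4 glands of 4 pooled female mice of the FVB/NJ strain, 10 weeks old. The sort used CD49f and EpCAM, the non-epithelial antigens CD31, CD45 and Ter119, and SytoxBlue, a dye that enters dead cells. The labels do not say whether the libraries share 1 pool of mice, so a p-value here weighs a difference only against the variation from library to library, which may be technical.

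A cell starts to copy its DNA after D-type cyclins, made in response to outside signals, have bound Cdk4 or Cdk6 and the active kinases have phosphorylated the retinoblastoma protein. That releases E2F transcription factors, which switch on cyclin E, cyclin A and the replication genes. Inhibitors of the CIP/KIP family (p21, the product of Cdkn1a, and p27, the product of Cdkn1b) block the later Cdk2 complexes, and INK4 proteins block Cdk4 and Cdk6. In the mammary gland, cyclin D1 is known for its role in the growth of the milk-forming lobules during pregnancy.

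The genes lie on mm10 at chr7:144929931-144939925 for Ccnd1, chr6:127125162-127152193 for Ccnd2, chr17:47505051-47599691 for Ccnd3, chr10:127063534-127067920 for Cdk4, chr5:3341485-3531008 for Cdk6, chr17:29090976-29100727 for Cdkn1a and chr6:134920401-134925513 for Cdkn1b. Ccnd1 and Ccnd2 are on the minus strand and the others on the plus strand, and all 7 are protein-coding. Genes in the tables that overlap a member on the opposite strand are Gm43126 and 9330179D12Rik (Ccnd2), Bysl (Ccnd3), Tspan31 (Cdk4) and Gm17590 (Cdk6). The sources used here do not say whether counting used the strand, so reads of these overlaps may not be separable.

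RefSeq promoter windows of build GRCm38.p6 were matched for 5 of the 7 genes, without an entry for Ccnd1 or Ccnd2. Those of 4 genes, the kinases and the inhibitors, are printed 5′ to 3′ on the gene's own strand. Each window shows the letters upstream of 1 RefSeq transcript start. Cdk6 and Cdkn1a differed between classes described below, while no difference of Cdk4 or Cdkn1b passed a test. Capitals mark motif matches. For Cdk4 (chr10:127063285-127063529, plus strand) they mark 4 E boxes, CACGTG, the letters bound by Myc-type factors, and 1 GC box, GGGCGG, read on the other strand.
Cdk4: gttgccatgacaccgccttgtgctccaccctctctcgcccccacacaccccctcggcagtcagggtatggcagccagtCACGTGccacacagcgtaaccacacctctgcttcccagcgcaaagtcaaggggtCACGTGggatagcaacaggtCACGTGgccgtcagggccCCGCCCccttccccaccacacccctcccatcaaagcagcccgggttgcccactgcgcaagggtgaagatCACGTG
For Cdk6 (chr5:3343789-3343887, plus strand) they mark a TATA box, TATAAA. That start lies within the gene as given above, downstream of its first base. The rest of that window holds an annotated exon and is not printed.
Cdk6: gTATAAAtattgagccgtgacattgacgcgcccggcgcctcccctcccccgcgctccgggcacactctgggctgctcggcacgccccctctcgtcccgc
For Cdkn1a (chr17:29090729-29090973, plus strand, 1 of 2 RefSeq starts) they mark 2 matches to the p53 decamer motif.
Cdkn1a: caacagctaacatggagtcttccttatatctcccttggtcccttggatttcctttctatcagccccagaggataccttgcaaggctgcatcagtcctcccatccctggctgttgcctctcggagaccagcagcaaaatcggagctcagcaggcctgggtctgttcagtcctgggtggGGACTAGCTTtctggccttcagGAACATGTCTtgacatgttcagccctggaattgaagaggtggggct
For Cdkn1b (chr6:134920151-134920395, plus strand) they mark 2 CCAAT boxes, CCAAT, and 1 GC box.
Cdkn1b: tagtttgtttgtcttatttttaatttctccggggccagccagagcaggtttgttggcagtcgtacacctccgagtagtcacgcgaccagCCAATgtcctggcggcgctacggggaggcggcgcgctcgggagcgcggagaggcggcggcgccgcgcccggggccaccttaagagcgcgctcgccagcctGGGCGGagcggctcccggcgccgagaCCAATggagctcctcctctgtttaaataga
Both strands were searched. Over 32851 RefSeq windows of 245 bases, the E box was present in 5.85%, the TATA box in 12.2%, the GC box in 32.1%, the CCAAT box in 33.5% and the p53 motif in 6.97%. A match is a description of letters, and binding was not measured.

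Library 1 held 6691 barcodes, library 2 held 9034 and library 3 held 11120, with 18584156 to 30984706 unique molecular identifiers (UMIs, 1 per captured transcript molecule) in all and medians of 2333 to 2525 per barcode. After filters on genes, mitochondrial UMIs and doublets, 24352 of 26845 barcodes stayed. Across libraries, 350 barcode sequences occurred more than once. A cell was classed by its summed UMIs of Krt5, Krt14 and Acta2 (basal, the contractile outer layer), of Csn3, Elf5, Kit and Aldh1a3 (luminal progenitor) or of Prlr, Areg, Pgr and Esr1 (hormone-responsive luminal). The top sum had to reach 5 UMIs and 3 times each of the others, which gave 9763 basal, 7952 luminal progenitor and 2530 hormone-responsive cells and left 4107 unclassed. Basal genes that the rule did not use summed to 9511 to 10317 CPM (counts scaled to a common total per library and class) in basal cells and 106 to 312 in the luminal classes. Luminal genes that it did not use summed to 7929 to 14799 in luminal cells and 1584 to 1818 in basal cells. Endothelial markers summed to at most 23.3 CPM and immune markers to at most 5.43 CPM in any class. Fibroblast markers summed to 101 to 319 CPM in basal, 152 to 192 in hormone-responsive and 17.6 to 36.4 in luminal progenitor cells. Most of it was Dcn in basal (75.9 to 239 CPM) and hormone-responsive cells (140 to 192), where no other marker of that list passed 36.8 CPM. Pericyte markers summed to 36.0 to 39.7 CPM in basal, 79.5 to 91.6 in luminal progenitor and 72.9 to 106 in hormone-responsive cells. In the luminal classes most of that was Notch3 (72.1 to 104 CPM). Erythroid markers summed to at most 47.3 CPM in any class. The part of these cell types in the results was not tested. Median UMIs per cell differed between classes, from 1721 to 2172 in basal, 2828 to 3777 in luminal progenitor and 3332.5 to 3826 in hormone-responsive cells. Library 1 stood apart: its luminal cells had less of the immediate-early gene Junb (1073 CPM in progenitors and 427 in hormone-responsive cells, against 1515 to 2599 in libraries 2 and 3), and it held 344 hormone-responsive cells.

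Each class had its own set of D cyclins, kinases and inhibitors. Basal cells had Ccnd2, little Ccnd1 and the most Cdkn1a. Luminal progenitor cells had the most Ccnd1 and Cdk6. Hormone-responsive cells had Ccnd1 and nearly no Cdk6 or Ccnd2. Cdk4, Ccnd3 and Cdkn1b were within a 2-fold range across the mean levels of the classes. Levels below are CPM of UMIs summed per library and class, scaled by TMM factors (which adjust for composition), with the mean ± SD over 3 libraries. Every sum shares its library with the sums of the other classes.

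**Figure D1:**
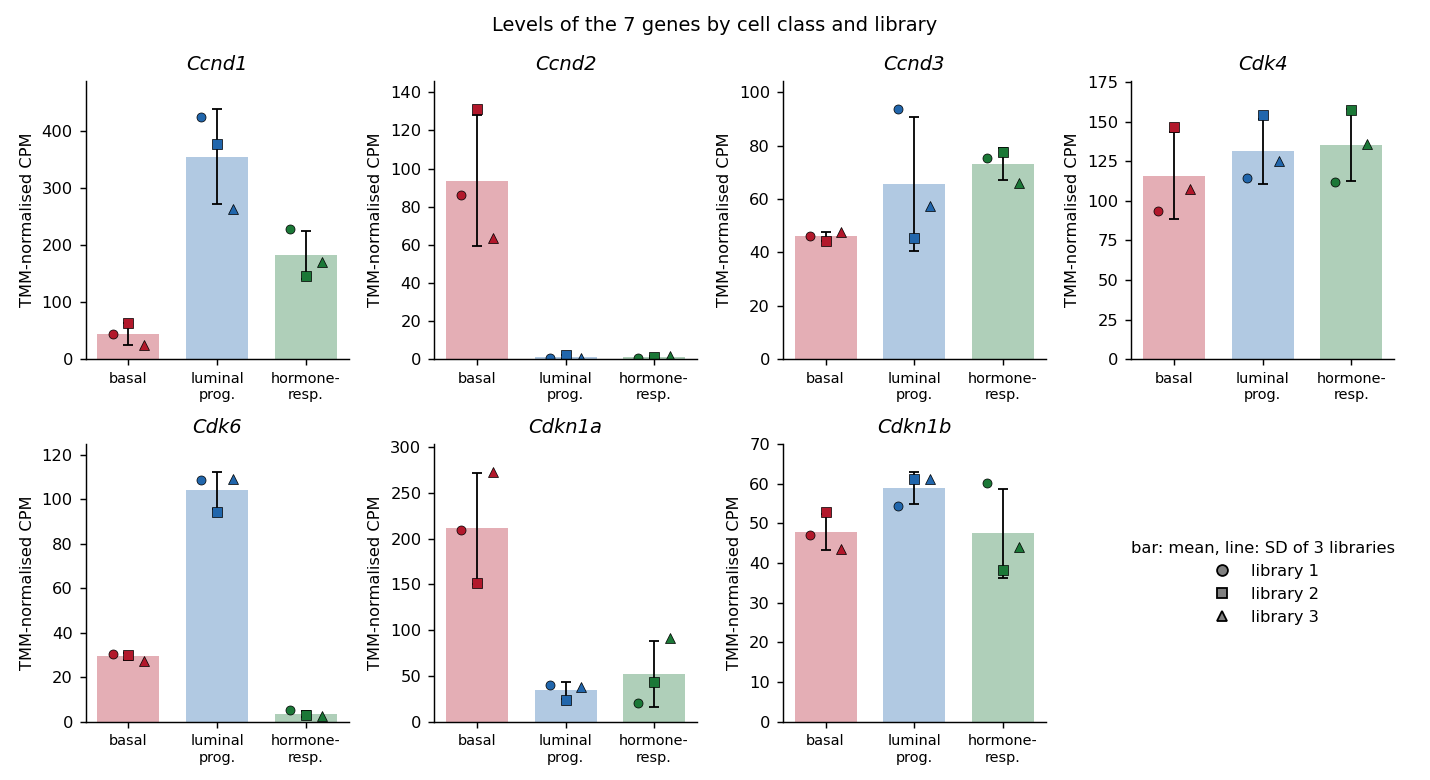
Level of each of the 7 genes in TMM-normalised CPM (linear axes from 0) in basal, luminal progenitor and hormone-responsive cells. Points are libraries, bars the means and lines the SD of 3 libraries. Ccnd2 stands at 63.6 to 131 CPM in basal cells and at or under 2.02 in the luminal classes, and Cdk6 at 94.4 to 109 in luminal progenitors and at most 5.13 in hormone-responsive cells.

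Ccnd1, cyclin D1, stood at 44.5, 63.4 and 25.3 CPM in the basal cells of libraries 1, 2 and 3. In luminal progenitor cells it stood at 424, 378 and 263 CPM, and in hormone-responsive cells at 228, 146 and 171 CPM. The luminal progenitor level was the highest and the basal level the lowest in every library, with no overlap between basal and luminal values or between the luminal classes. The means were 44.4 ± 19.1, 355 ± 83.1 and 182 ± 41.9 CPM (SD, n = 3). By edgeR's quasi-likelihood test with Benjamini-Hochberg adjustment, basal cells were lower than luminal progenitors by a log2 fold change of -3.01 ± 0.43 (SD of the within-library ratios, n = 3, adjusted p = 1.35e-05). Against hormone-responsive cells the value was -2.08 ± 0.80 (edgeR adjusted p = 0.00012). Luminal progenitors exceeded hormone-responsive cells by 0.93 ± 0.38 on the log2 scale (edgeR adjusted p = 0.0122). That lies under the 2-fold change asked of a call, and it reached 1.12 without library 3 (edgeR adjusted p = 0.0221).

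The basal level of Ccnd1 was 10.9%, 17.2% and 10.2% of the luminal progenitor level in the 3 libraries. For 9 other luminal genes that the classes were not defined by, the median basal level was 11.8%, 8.72% and 9.64% of the progenitor level. Basal Ccnd1 thus lay within 2 times that median in all 3 libraries, but the 9 genes were spread widely. They ran from 2.13% (Cd14, library 2) to 55.1% (Spint2, library 2). In each library Ccnd1 stood above Cd14, Wfdc18, Cldn3 and Cldn7, which were at most 5.27%. It stood below Krt8, Epcam and Spint2, which were at least 20.4%. The median therefore sets no level for luminal RNA in the suspension, and whether such RNA makes part of basal Ccnd1 was not tested.

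Ccnd2, cyclin D2, was counted 2124 times in basal cells, 26 times in luminal progenitor cells and 13 times in hormone-responsive cells. Its basal levels were 86.1, 131 and 63.6 CPM (93.6 ± 34.4, n = 3). Luminal progenitors had 0.499, 2.02 and 0.731 CPM, and hormone-responsive cells 0.733, 1.29 and 1.66 CPM. Both luminal classes were at or under 2.02 CPM in every library, far from the lowest basal value, and they overlapped each other. Scaled by total UMIs, the basal level was 179 times (95% counting interval 75.7 to 554), 66.7 times (38.8 to 126) and 92.4 times (46.5 to 215) that of luminal progenitors. Over hormone-responsive cells the ratio was 110 in library 1, where it rests on 1 UMI (19.5 to 4341), 96.3 in library 2 (41.2 to 297) and 35.9 in library 3 (17.3 to 89.7). These intervals cover counting error only. The luminal progenitor level was 0.56%, 1.5% and 1.08% of the basal level, beside medians of 1.03%, 3.44% and 1.77% for 9 other basal genes. The hormone-responsive level was 0.913%, 1.04% and 2.79% of the basal level, beside 1.15%, 3.12% and 1.61% for those genes. Except in hormone-responsive cells of library 3, the luminal share of Ccnd2 was below the median of those genes, and whether basal RNA in the suspension makes part of it was not tested. The log2 fold change between the luminal classes was -0.40 ± 0.74 (n = 3, edgeR adjusted p = 0.556), and it rests on 26 against 13 UMIs.

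Ccnd3, cyclin D3, varied less between the classes. It stood at 46.0, 44.4 and 47.8 CPM in basal cells, at 93.6, 45.5 and 57.5 in luminal progenitors and at 75.5, 77.5 and 66.1 in hormone-responsive cells. Luminal progenitors overlapped both other classes, because their value in library 1 was the highest of all and that in library 2 lay among the basal values. Basal cells were lower than hormone-responsive cells in every library, by a log2 fold change of -0.67 ± 0.17 (n = 3, edgeR adjusted p = 0.0199), which is under 2-fold. The basal value against luminal progenitors was -0.46 ± 0.52 (edgeR adjusted p = 0.0788), and it was -0.17 without library 1. For luminal progenitor against hormone-responsive cells it was -0.21 ± 0.54 (edgeR adjusted p = 0.436).

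Counted as UMIs of the 3 D cyclins together, the makeup differed between the classes. In 3′ counting each molecule gives 1 tag whatever its length, so these shares need no length scaling. Of the basal D-cyclin UMIs (595, 2498 and 995 in the 3 libraries), 50.1% ± 4.33 were Ccnd2, 23.4% ± 4.31 Ccnd1 and 26.5% ± 8.21 Ccnd3 (SD, n = 3). In luminal progenitors, 84.2% ± 4.03 were Ccnd1 and 15.6% ± 4.21 Ccnd3. In hormone-responsive cells, 70.5% ± 5.07 were Ccnd1 and 29.0% ± 4.94 Ccnd3. Ccnd2 made 0.266% of the D-cyclin UMIs in luminal progenitors and 0.503% in hormone-responsive cells. The share of Ccnd1 was at most 26.5% in the basal cells of any library and at least 65.0% in the luminal cells of any library.

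**Figure D2:**
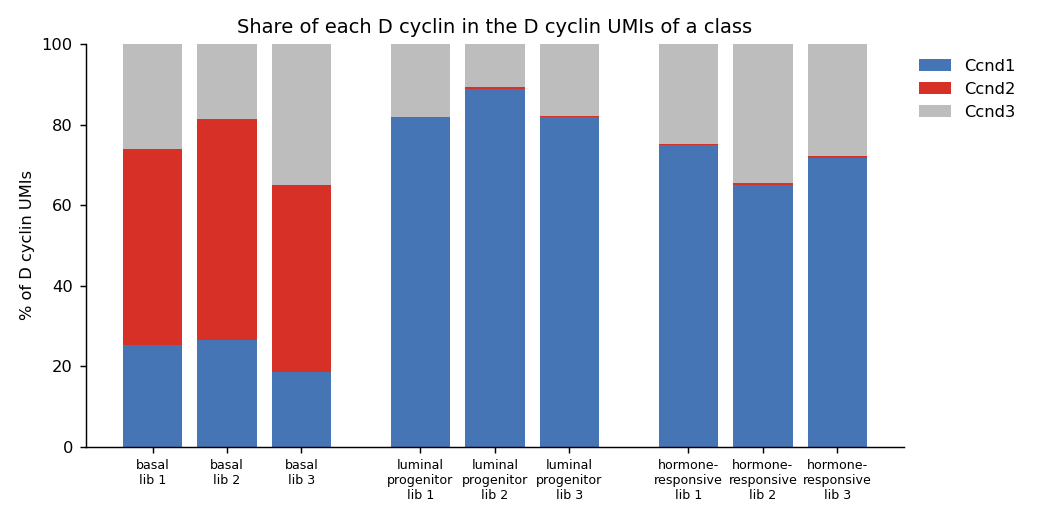
Share of D-cyclin UMIs (percent) that were Ccnd1, Ccnd2 or Ccnd3 in each class and library, as stacked bars. Ccnd2 takes 46.5% to 54.9% in basal cells and under 1% in luminal cells, where Ccnd1 takes 65.0% to 88.8%.

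Many single cells showed no UMI of a given D cyclin, since each cell is sampled shallowly. With every cell thinned to 1000 UMIs, which left out 309 basal, 83 luminal progenitor and 19 hormone-responsive cells, Ccnd1 was seen in 3.34% of basal, 24.0% of luminal progenitor and 17.4% of hormone-responsive cells. Without thinning these shares were 7.36%, 50.1% and 40.7%. Ccnd2 was seen in 7.01%, 0.114% and 0.146% of the thinned cells, and in 13.5%, 0.380% and 0.460% of all cells. Both measures order the classes the same way for Ccnd1. Thinning to 2000 UMIs left out 5068 basal cells, those with fewer UMIs, and kept 4695. In the basal cells kept, Ccnd2 without Ccnd1 was seen in 10.9%, 16.3% and 11.7% of cells. Ccnd1 without Ccnd2 was seen in 5.88%, 6.72% and 3.83%, and both in 1.84%, 3.89% and 0.537%. Some basal barcodes therefore carried both cyclins, and Ccnd2 alone was the commonest state among those with either.

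Cdk4, the kinase shared by all 3 D cyclins, was near level across the classes. It stood at 93.8, 147 and 108 CPM in basal cells, at 115, 154 and 125 in luminal progenitors and at 112, 158 and 136 in hormone-responsive cells. The ranges overlapped, and library 2 was the highest of the 3 in every class. Fitted log2 fold changes were -0.19 ± 0.11 for basal against luminal progenitor cells (edgeR adjusted p = 0.146), -0.23 ± 0.12 for basal against hormone-responsive cells (edgeR adjusted p = 0.0914) and -0.04 ± 0.08 between the luminal classes (edgeR adjusted p = 0.786).

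Cdk6, the other D-cyclin kinase, separated all 3 classes. Basal cells had 30.6, 30.0 and 27.5 CPM (29.4 ± 1.66, n = 3), luminal progenitors 109, 94.4 and 109 CPM (104 ± 8.31) and hormone-responsive cells 5.13, 2.84 and 2.37 CPM (3.45 ± 1.48, from 28 UMIs). The order was luminal progenitor, basal, hormone-responsive in each library, with no overlap. Luminal progenitors exceeded hormone-responsive cells by 5.07 ± 0.51 on the log2 scale (n = 3, edgeR adjusted p = 2.87e-07). They exceeded basal cells as well, the log2 fold change of basal against luminal progenitor cells being -1.82 ± 0.17 (edgeR adjusted p = 8.46e-06). Basal cells in turn exceeded hormone-responsive cells by 3.26 ± 0.47 (edgeR adjusted p = 2.91e-06). Cdk6 was seen in 2.35% of basal, 9.55% of luminal progenitor and 0.221% of hormone-responsive cells thinned to 1000 UMIs (5.98%, 27.3% and 1.30% unthinned).

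Cdkn1a, which encodes the inhibitor p21, stood at 210, 151 and 273 CPM in basal cells. Luminal progenitors had 40.6, 24.1 and 38.2 CPM and hormone-responsive cells 20.5, 43.9 and 91.5 CPM. Basal cells were highest in every library, and the luminal classes overlapped. Basal cells exceeded luminal progenitors by 2.59 ± 0.24 on the log2 scale (n = 3, edgeR adjusted p = 0.000129) and hormone-responsive cells by 2.01 ± 0.96 (edgeR adjusted p = 0.000577). The value between the luminal classes was -0.58 ± 1.19 (edgeR adjusted p = 0.183), with progenitors higher in library 1 and lower in libraries 2 and 3. Without library 1 it became -1.10 (edgeR adjusted p = 1.64e-05). Junb moved across the libraries with Cdkn1a in hormone-responsive cells (427, 1515 and 1721 CPM) but not in luminal progenitors (1073, 2020 and 2599 CPM), and its part in the result was not tested. In cells thinned to 1000 UMIs, Cdkn1a was seen in 18% of basal, 3.12% of luminal progenitor and 5.40% of hormone-responsive cells (28.7%, 8.63% and 13.2% unthinned).

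Cdkn1b, which encodes the inhibitor p27, stood at 47.2, 52.8 and 43.7 CPM in basal cells, at 54.3, 61.3 and 61.2 in luminal progenitors and at 60.1, 38.2 and 44.1 in hormone-responsive cells. Progenitors were above basal cells in each library by a small margin, and the hormone-responsive values spanned those of both. None of the 3 comparisons passed the test. The log2 fold changes were -0.30 ± 0.16 for basal against luminal progenitor cells (edgeR adjusted p = 0.152), 0.05 ± 0.41 for basal against hormone-responsive cells (edgeR adjusted p = 0.815) and 0.35 ± 0.43 between the luminal classes (edgeR adjusted p = 0.132).

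A gene was called at an edgeR adjusted p below 0.05 and at least a 2-fold change. Leaving Ccnd2 aside, 3 of the other 6 members were called between basal and luminal progenitor cells (Ccnd1, Cdk6 and Cdkn1a), beside 31.2% of 12643 genes tested (17% higher and 14.3% lower in basal cells). Between basal and hormone-responsive cells the same 3 were called, beside 35.9% of all genes (20.6% higher and 15.3% lower). Between the luminal classes 1 of 7 was called (Cdk6), beside 24.6% of all genes (14.4% higher and 10.3% lower). All 7 passed the filter on low counts in each comparison. The median log2 fold change of all genes was -0.10, -0.01 and 0.07 in these comparisons. Each of the called differences kept its direction and its call in all 13 alternatives.

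**Figure D3:**
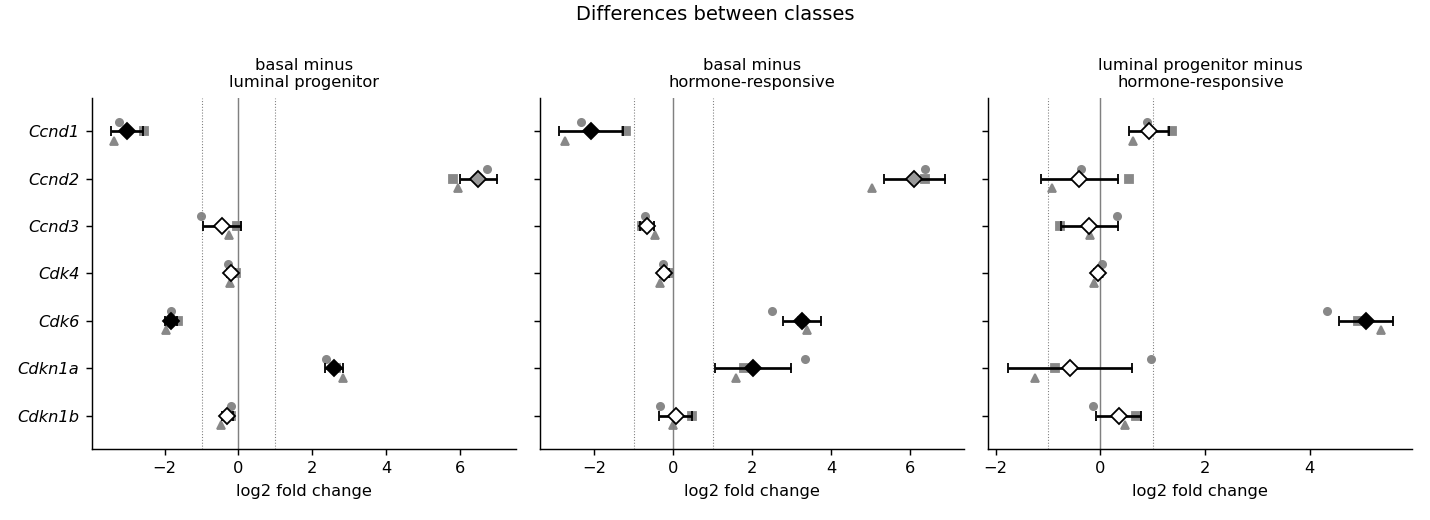
Log2 fold change between classes (x axis) for the 7 genes. Grey symbols are the ratios of single libraries, diamonds the fitted values (black where called, grey where Ccnd2 is only described), bars the SD of the ratios of 3 libraries, and dotted lines a 2-fold change. Ccnd1 at -3.01 and Cdk6 at -1.82 lie beyond the lines for basal minus luminal progenitor cells, while the diamonds of Cdk4 and Cdkn1b stay between them in all 3 panels.

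The 4107 cells that the class rule left out were near luminal progenitors for some members and between the classes for others. They had 405, 390 and 264 CPM of Ccnd1 and 91.3, 94.9 and 94.4 CPM of Cdk6. Ccnd2 stood at 9.13, 11.5 and 9.70 CPM and Cdkn1a at 105, 37.2 and 76.3 CPM. Their median depth was 1674.5 to 2250 UMIs, and they entered no test.

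Within the classes, the members also varied with other genes. Basal cells with at least 2 UMIs of Vcan and Igfbp2 in sum (159, 1057 and 398 cells) were compared with the other basal cells as a description, since Ccnd2 was known to go with these genes. Ccnd2 stood at 169, 249 and 129 CPM in these cells and at 69.4, 75.5 and 52.7 CPM in the other basal cells. Ccnd1 stood at 105, 126 and 44.6 CPM against 32.6, 34.1 and 22.1 CPM, so that both cyclins were higher in all 3 libraries. Cdkn1a was lower in each, at 91.9, 101 and 189 CPM against 232, 173 and 288 CPM. Cdk4 was higher (152 ± 30.7 against 105 ± 20.5 CPM, n = 3), and Cdk6 (32.2 ± 6.19 against 29.1 ± 2.63), Ccnd3 (43.8 ± 2.11 against 46.2 ± 2.52) and Cdkn1b (41.6 ± 5.71 against 50.0 ± 7.29) lay closer together. These cells were deeper, with medians of 2484 to 3052 UMIs against 1670 to 2011. Among cells of 2000 to 6000 UMIs the means were 190 against 79.2 CPM for Ccnd2, 92.4 against 31.6 for Ccnd1 and 129 against 219 for Cdkn1a.

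**Figure D4:**
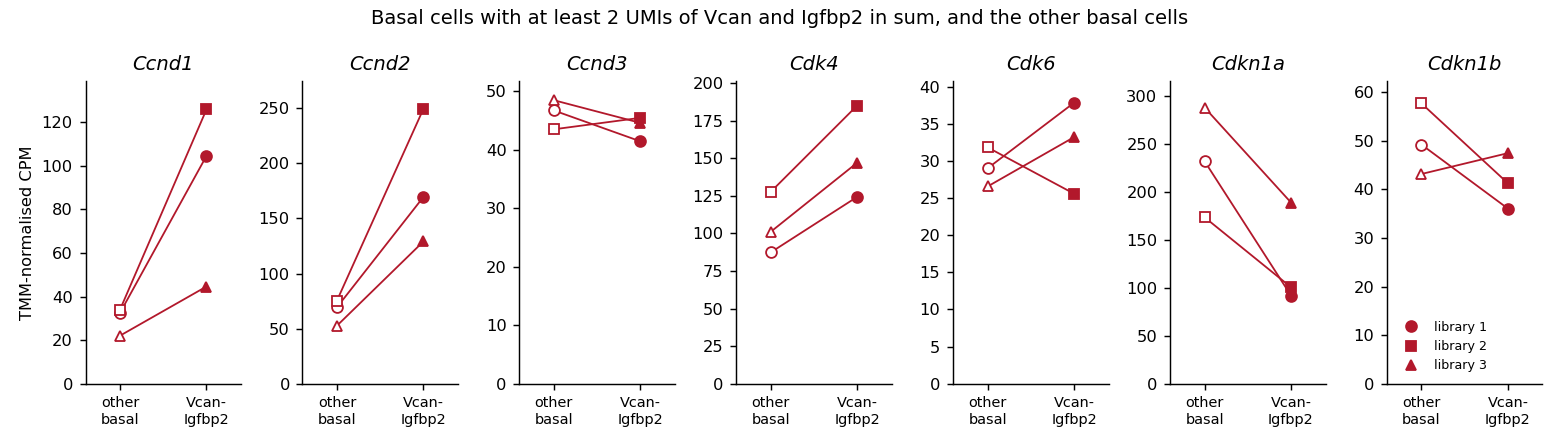
Levels in TMM-normalised CPM (axes from 0) of the 7 genes in the other basal cells (open) and in basal cells with at least 2 UMIs of Vcan and Igfbp2 in sum (filled). Lines join the values of 1 library. Ccnd2 and Ccnd1 are higher and Cdkn1a lower in the Vcan and Igfbp2 cells of all 3 libraries.

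Among luminal progenitors, those with at least 20 UMIs of the milk protein genes Csn2, Csn1s2a and Wap in sum had 79.1, 67.4 and 82.5 CPM of Cdk6, against 109, 127 and 120 CPM in the others. The casein-rich cells were lower in every library, without overlap, but the value of library 1 rests on 10 UMIs in 30 cells (library 2 had 726 such cells and library 3 had 909). Of the other members, mean Ccnd1 stood at 320 ± 112 against 370 ± 68.9 CPM (SD, n = 3). Cdkn1b stood at 43.4 ± 24.1 against 60.3 ± 4.91 CPM and Ccnd3 at 61.8 ± 19.8 against 66.3 ± 23.8. Cdk4 stood at 134 ± 24.2 against 129 ± 15.4 CPM and Cdkn1a at 36.3 ± 15.0 against 34.2 ± 5.89. Ccnd2 stood at 0.753 against 1.17 CPM. How many of all genes differed in this way was not counted. The casein-rich cells were also deeper, with medians of 3575.5 to 4811 UMIs against 2816 to 3097. Progenitors with at least 2 UMIs of Tnf and Cxcl2 in sum had 109, 95.0 and 116 CPM of Cdk6, against 108, 93.2 and 104 CPM in the others, which is a smaller gap. Those cells, too, were deeper, with medians of 3860 to 4511.5 UMIs against 2775 to 3519, and the part of depth was not tested. These values are descriptions with no test.

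Cells with at least 1 UMI of Top2a or Mki67, genes of S to M phase, are called dividing here. They numbered 260 of 9763 basal cells, 517 of 7952 luminal progenitors and 68 of 2530 hormone-responsive cells. The share was 2.37% ± 1.00 in basal, 6.95% ± 4.00 in luminal progenitor and 2.58% ± 0.418 in hormone-responsive cells (SD, n = 3). In libraries 1, 2 and 3 it was 1.34%, 3.34% and 2.42% in basal cells and 2.36%, 9.58% and 8.93% in luminal progenitors. In hormone-responsive cells it was 2.33%, 2.35% and 3.06%, so progenitors stood apart from both other classes only in libraries 2 and 3. These shares are of unthinned cells, and the part of the unlike depth of the classes in them was not tested. Dividing cells were deeper: medians were 2501 to 2752 UMIs against 1708 to 2164 in basal cells and 4227 to 5552 against 2800 to 3606 in progenitors. The part of depth in the differences was not tested beyond the restriction to cells of 2000 to 6000 UMIs. Library 1 had 8 dividing hormone-responsive cells and was left out of that fit, which therefore rests on 2 libraries.

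None of the 7 members was called between dividing and other cells. The background was 2.48% of 11426 genes in basal cells (1.96% higher and 0.516% lower in dividing cells), 4.03% in luminal progenitors (3.07% higher and 0.954% lower) and 0.105% in hormone-responsive cells (0.0525% each way). At an unadjusted edgeR p below 0.05, 16.2%, 20.5% and 7.12% of all genes passed. The fitted changes of Ccnd1 and Cdkn1a in basal cells and of Cdk4 in progenitors came nearest.

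In basal cells, Ccnd1 went from 43.9, 59.1 and 24.3 CPM in the other cells to 62.8, 144 and 52.9 CPM in the dividing cells. Each library was higher in the dividing cells, by a fitted log2 fold change of 1.27 ± 0.40 (n = 3, edgeR adjusted p = 0.0589). The call was made in 6 of 14 alternatives, among them the fit without library 1 (1.34, edgeR adjusted p = 0.0285). Cdkn1a went from 211, 155 and 279 CPM to 87.9, 82.8 and 162 CPM. It was lower in the dividing cells of each library, with a fitted value of -0.91 ± 0.25 (edgeR adjusted p = 0.168). Ccnd2 stood at 163, 166 and 70.6 CPM in dividing cells and at 83.8, 129 and 63.7 CPM in the others, with a value of 0.40 ± 0.42 (edgeR adjusted p = 0.422). The dividing sum of library 1 holds 20 cells with 5 UMIs of Ccnd1, 13 of Ccnd2 and 7 of Cdkn1a, so its values are imprecise. Basal dividing cells kept Ccnd2 as their main D cyclin by UMIs, at 51.5% ± 11.7 of the D-cyclin UMIs (n = 3) against 50.2% ± 4.85 in the other basal cells. By library its share was 65%, 45.0% and 44.4% in dividing cells, against 48.2%, 55.7% and 46.6% in the others. The share of Ccnd1 was 25%, 39.3% and 33.3% against 25.2%, 25.5% and 17.8%. In libraries 2 and 3 the share of Ccnd1 was thus higher and that of Ccnd2 lower in dividing cells, and the high Ccnd2 share of library 1 rests on 20 D-cyclin UMIs.

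In luminal progenitors, Cdk4 went from 110, 145 and 123 CPM to 232, 214 and 144 CPM in dividing cells. It was higher in every library, by 0.61 ± 0.43 on the log2 scale (n = 3, edgeR adjusted p = 0.0245), which is under 2-fold. Among cells of 2000 to 6000 UMIs the value was 0.26 (edgeR adjusted p = 0.432). The value in basal cells was 0.48 ± 0.20 (edgeR adjusted p = 0.209). Ccnd1 stood at 585, 502 and 252 CPM in dividing progenitors and at 419, 358 and 266 CPM in the others, with a value of 0.31 ± 0.32 (edgeR adjusted p = 0.555). Cdk6 was at 122, 88.3 and 66.7 CPM in dividing progenitors and at 109, 95.9 and 116 CPM in the others (-0.27 ± 0.49, edgeR adjusted p = 0.416). Ccnd1 and Cdk6 each moved in different directions between libraries. Cdkn1a (0.25 ± 0.37), Cdkn1b (0.24 ± 0.41) and Ccnd3 (-0.07 ± 0.35) had edgeR adjusted p-values of 0.755, 0.566 and 0.907.

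In hormone-responsive cells of libraries 2 and 3, Cdkn1a went from 41.9 and 89.1 CPM to 96.3 and 129 CPM in dividing cells, from 12 and 24 UMIs. Both libraries were higher, by a fitted 1.09 ± 0.46 (n = 2, edgeR adjusted p = 0.652). Ccnd1 went from 145 and 164 CPM to 144 and 301 CPM (0.58 ± 0.63, edgeR adjusted p = 0.798). Ccnd2 and Cdk6 had 0 of 303448 UMIs in the 68 dividing hormone-responsive cells, which allows up to 9.89 CPM. The other hormone-responsive cells, at 1.52 CPM of Ccnd2 and 3.27 CPM of Cdk6, lay below that limit, so a difference was not detectable at this depth.

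Differences between classes in the dividing effect were tested as interaction terms. The contrast of hormone-responsive against basal cells was chosen after the values were seen. None of 11426 genes was called for luminal progenitor against basal cells or for hormone-responsive against basal cells (0%), with 726 genes (6.35%) and 743 genes (6.5%) at an unadjusted edgeR p below 0.05. For Cdkn1a the difference was 1.15 ± 0.60 between progenitors and basal cells (n = 3, edgeR adjusted p = 0.715) and 2.00 ± 0.55 between hormone-responsive and basal cells (n = 2, edgeR adjusted p = 0.518). For Ccnd1 the difference between progenitors and basal cells was -0.95 ± 0.59 (n = 3, edgeR adjusted p = 0.752).

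**Figure D5:**
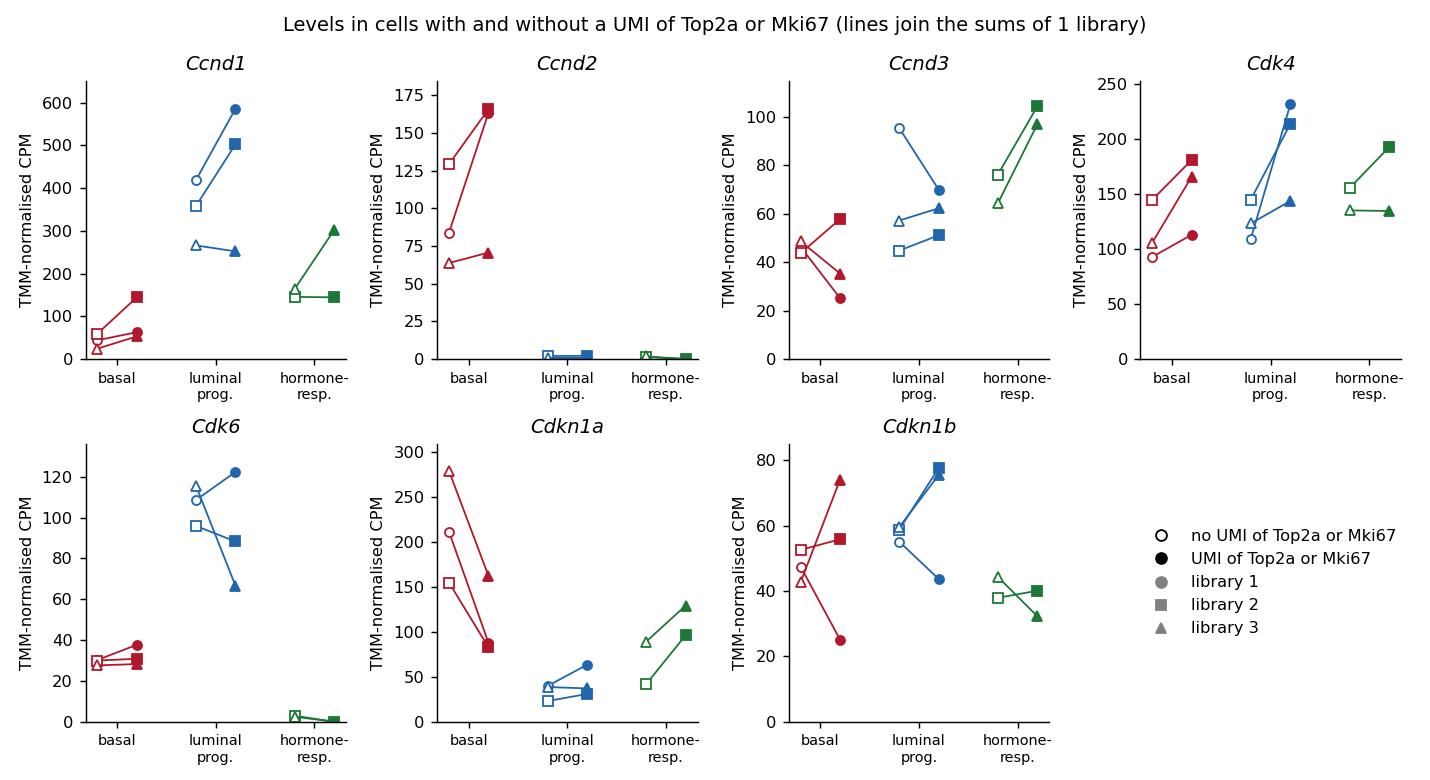
Levels of the 7 genes in TMM-normalised CPM (axes from 0) in cells without (open) and with (filled) a UMI of Top2a or Mki67, by class. Lines join the sums of 1 library, with library 1 left out of hormone-responsive cells. Cdkn1a stands at 155 to 279 CPM in the other basal cells and at 82.8 to 162 in the dividing ones, and stands higher in the dividing hormone-responsive cells of both libraries shown.

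The other genes of the pathway are given by list, and each count reads against the share of all genes called in its comparison (31.2% for basal against progenitor cells, 35.9% for basal against hormone-responsive cells and 24.6% between the luminal classes). Of 5 other INK4 and CIP/KIP inhibitors, 4 were tested between classes. Between basal and luminal progenitor cells, Cdkn1c (p57) and Cdkn2d were higher in basal cells and Cdkn2c (p18) was lower. The list median of 2.06 on the log2 scale, against -0.10 for all genes, is that of only 4 genes. It takes in Cdkn2a, which was not called and had mean levels of 0.520 CPM in basal cells and 0.0609 CPM in progenitors. Cdkn1c stood at 6.83, 35.6 and 28.8 CPM in basal cells and at 5.89, 0.931 and 1.64 CPM in luminal progenitors (3.01 ± 2.46, edgeR adjusted p = 0.00633). Library 1 showed almost no difference, and the call was lost without library 2 or without library 3. Cdkn2c stood at 5.34, 7.84 and 10.6 CPM in basal cells, 21.8, 21.0 and 26.0 in progenitors and 4.40, 6.20 and 6.64 in hormone-responsive cells. Progenitors were highest in each library, above hormone-responsive cells by 1.98 ± 0.26 (edgeR adjusted p = 9.06e-05), and basal cells differed from them by -1.53 ± 0.37 (edgeR adjusted p = 0.000109). Cdkn2a, which encodes p16 and Arf, was sparse: it stood at 5.86, 6.20 and 2.61 CPM in hormone-responsive cells and at most at 1.15 CPM in any basal or progenitor sum. It was called higher in hormone-responsive cells against both other classes (edgeR adjusted p = 0.00517 and 0.00101).

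Of 13 pocket proteins and E2F factors, 11 were tested between classes. Rb1, the retinoblastoma gene and target of the D-cyclin kinases, was highest in luminal progenitors, as Cdk6 was. It stood at 119, 114 and 171 CPM in luminal progenitors, at 17.2, 16.8 and 22.2 in basal cells and at 6.60, 13.9 and 13.5 in hormone-responsive cells. Progenitors were above every other sum, and the difference of basal against progenitor cells was -2.85 ± 0.10 (n = 3, edgeR adjusted p = 1.58e-06). Against progenitors, basal cells had 1 higher gene of 11, Tfdp2, an E2F partner (1.12 ± 0.06, edgeR adjusted p = 4.61e-05), and 3 lower (median -0.53), of which 1 was left without library 2 and 1 without library 3. Against hormone-responsive cells they had 2 higher and 1 lower (median 0.44). These became 3 and 0 without library 1, 0 and 0 without library 2, 1 and 0 without library 3, 4 and 1 under DESeq2 and 1 and 1 with total counts. Between the luminal classes 3 were higher in progenitors and 0 lower (median 0.41), and 1 was higher without library 2.

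Of 9 genes for cyclins E and A, Cdk2 and activators, 8 were tested. Ccne1, cyclin E1, the next cyclin after the D type, was highest in basal cells at 4.75, 8.61 and 7.42 CPM, against 0.499, 1.09 and 1.01 CPM in progenitors and 0, 0.258 and 0.237 CPM in hormone-responsive cells. Basal cells exceeded progenitors by 2.98 ± 0.06 (n = 3, edgeR adjusted p = 4.05e-05). Ccna2, cyclin A2 of S and G2 phase, was lower in basal cells than in progenitors (-1.73 ± 0.23, edgeR adjusted p = 0.00141). The other 6 did not pass (list median -0.28). Against hormone-responsive cells 2 were higher in basal cells and 3 in progenitors, with 0 lower in either (medians 0.23 and 0.48). Without library 2, 1 was called in each.

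All 13 genes for the turnover of D cyclins and inhibitors were tested. Fbxo31, which marks cyclin D1 for destruction, was lower in basal cells than in progenitors (-1.67 ± 0.47, edgeR adjusted p = 7.65e-05) and hormone-responsive cells (-1.40 ± 0.40, edgeR adjusted p = 0.000304). It stood at 8.91, 9.75 and 7.14 CPM in basal cells, at 41.0, 23.3 and 22.9 in progenitors and at 33.0, 20.7 and 19.2 in hormone-responsive cells, so it was high where Ccnd1 was high. Cryab, a small heat-shock protein that works with Fbxo4 on cyclin D1, was lowest in hormone-responsive cells (11.7, 8.78 and 6.87 CPM against 59.1 to 112 in the other sums). Fbxo4 itself was higher in hormone-responsive cells than in progenitors (22.8 ± 3.78 against 9.53 ± 0.657 CPM, edgeR adjusted p = 0.000545). The counts were 0 higher and 1 lower for basal against progenitor cells (median 0.05), 3 and 1 for basal against hormone-responsive cells (median -0.15; 3 and 2 without each library in turn, 3 and 3 with total counts) and 3 and 1 between the luminal classes (median 0.13).

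Of 14 genes known as inducers of D cyclins, 13 were tested, and they were divided between the classes. Against progenitors, 6 were higher and 3 lower in basal cells (median 0.44 against -0.10 for all genes), with the same counts without each library in turn. Etv4, an ETS factor downstream of growth factor receptors, stood at 32.1, 38.4 and 28.0 CPM in basal cells, at 3.19, 2.17 and 2.74 in progenitors and at 19.8, 16.8 and 24.7 in hormone-responsive cells. It was lowest in progenitors, by 3.58 ± 0.43 against basal cells (edgeR adjusted p = 2.75e-06) and by -2.90 ± 0.26 against hormone-responsive cells (edgeR adjusted p = 2.54e-05). Egfr, the epidermal growth factor receptor, stood at 64.7, 88.7 and 89.3 CPM in basal cells, 27.7, 25.3 and 32.3 in progenitors and 2.20, 2.84 and 2.61 in hormone-responsive cells. The classes did not overlap, and basal cells exceeded hormone-responsive cells by 4.97 ± 0.12 (edgeR adjusted p = 2.76e-07). The prolactin signal transducers ran the other way: Stat5b was lower in basal cells than in progenitors (-1.56 ± 0.16, edgeR adjusted p = 1.56e-05) and Stat5a lower than in hormone-responsive cells (-1.60 ± 0.29, edgeR adjusted p = 0.000119). Against hormone-responsive cells, 6 of 13 were higher and 2 lower in basal cells (median 0.97), and 5 higher and 1 lower in progenitors (median 0.96; 3 and 1 with total counts).

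The p53 list holds Trp53, the gene of p53 itself, and p53 targets other than Cdkn1a, and all 18 genes were tested. Against progenitors, 5 were higher and 0 lower in basal cells (median 0.43), beside 17% and 14.3% of all genes, led by Perp, a p53 target and desmosome protein, at 302, 351 and 382 CPM against 20.7, 29.8 and 30.3 CPM (3.69 ± 0.16, edgeR adjusted p = 1.48e-07). The other 13 did not pass. Against hormone-responsive cells, 6 were higher and 4 lower (median 0.01), led by the death receptor gene Fas (3.73 ± 0.55, edgeR adjusted p = 5.72e-06). With total counts alone as the scaling these became 4 and 5, and without library 2 they became 6 and 2. Between the luminal classes 2 were higher and 5 lower in progenitors (median -0.68), beside 14.4% and 10.3% of all genes, and 3 were lower without library 2. Of 12 immediate-early genes, which dissociation can induce, 1 was higher and 0 lower in basal cells against progenitors (Junb, 1.04 ± 0.53, edgeR adjusted p = 0.0146; median 0.64), and there were 0 higher and 1 lower without library 1 and 3 higher under DESeq2. Against hormone-responsive cells 5 were higher and 0 lower (median 0.93), led by Ier3 (2.72 ± 0.85, edgeR adjusted p = 0.000639), and without library 1 there were 3 and 2. Between the luminal classes 2 were higher in progenitors (median 0.44). Their part in the levels of Cdkn1a was not tested.

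Of the genes of replication and division, most calls were higher in progenitors, the class with the largest mean share of dividing cells. Of 20 S-phase genes, 9 were lower and 0 higher in basal cells than in progenitors (median -0.91), and 15 were higher in progenitors than in hormone-responsive cells (median 1.67). Against hormone-responsive cells, 5 were higher and 0 lower in basal cells (median 0.61), which became 3 and 0 without library 1 and 3 and 1 without library 2. Of 19 G2 and M genes tested, 15 were lower in basal cells than in progenitors (median -1.35), which became 9 without library 2 and 5 without library 3. In progenitors 17 were higher than in hormone-responsive cells (median 2.49; 8 without library 2 and 6 without library 3), and in basal cells 4 were (median 0.70; 8 without library 1, 0 without library 2 and 1 without library 3).

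Phase genes go with Top2a and Mki67, which chose the dividing cells, so their counts between dividing and other cells are a description. In basal cells 14 of 20 S-phase genes were higher (median 2.15; 2 without library 2 and 9 without library 3), as were 20 of 20 G2 and M genes (median 5.25). In luminal progenitors the counts were 19 of 20 and 20 of 20 (medians 2.24 and 4.35). In hormone-responsive cells 0 of 20 S-phase genes and 1 of 20 G2 and M genes were called by edgeR (Ccnb2, cyclin B2, 4.26 ± 0.41, n = 2, adjusted p = 0.0154; medians 0.75 and 3.12). These became 1 and 6 under DESeq2, and 5 G2 and M genes were called without library 1. The call of Ccnb2 was lost without the library as a block. Other lists also hold genes of the cycle. Of 12 pocket proteins and E2F factors tested, 2 were higher in dividing basal cells, led by E2f8, a repressor of E2F targets (4.56 ± 0.82, n = 3, edgeR adjusted p = 0.00179), and 0 without library 2 or library 3. In progenitors 5 were higher, again led by E2f8 (4.97 ± 1.00, edgeR adjusted p = 1.38e-05). Of 8 genes for cyclins E and A, Cdk2 and activators, 2 were higher in dividing basal cells (1 without library 2 or library 3) and 3 in dividing progenitors (1 without library 2). Ccna2 led both (6.35 ± 0.59, edgeR adjusted p = 1.32e-06, and 5.01 ± 1.34, edgeR adjusted p = 1.49e-07). In basal cells, 1 gene each of 3 further lists was higher. The inhibitor Cdkn2c was higher in dividing basal cells (1.73 ± 0.31, edgeR adjusted p = 0.00809), as were Etv4 (1.41 ± 0.55, edgeR adjusted p = 0.00553) and Cks1b, a partner of Skp2 in p27 destruction (1.20 ± 0.77, edgeR adjusted p = 0.00203). Each of these 3 lost its call without library 2 and without library 3. Of 12 immediate-early genes, 1 was lower in dividing basal cells, Klf4 (-1.35 ± 0.39, edgeR adjusted p = 0.0262), a call lost without each library in turn. In dividing progenitors, 3 of 13 turnover genes were higher, led by Skp2 itself (1.90 ± 1.18, edgeR adjusted p = 0.0136), whose call was lost without library 2. Cdkn2d was higher there (1.18 ± 0.39, edgeR adjusted p = 0.0481), and it was not called without library 2 or library 3. In hormone-responsive cells these lists held 0 calls by edgeR, 1 of the cyclin E and A list under DESeq2 and 1 lower immediate-early gene without library 1. None of the 17 genes tested from the p53 list was called in any class (edgeR). The list medians were -0.03, 0.00 and -0.20 in basal, progenitor and hormone-responsive cells. Without library 1, 1 gene of this list was lower in basal cells.

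The genes most like each member were taken from 8854 genes by Pearson correlation of log2 CPM over the 9 class sums of 3 libraries, which share their libraries in threes. For Ccnd1 these were Psmg3 (r = 0.992), 1600002K03Rik (0.980) and Zfp692 (0.979). For Ccnd2 they were Bmp7 (0.991), Adamts2 (0.991) and Slit2 (0.991). For Cdk6 they were Fam84b (0.992), Clint1 (0.992) and Tcf7l2 (0.992), the last of which is on the inducer list. For Cdkn1a they were Arl15 (0.991), Osmr (0.979) and Bmpr2 (0.970). For the flatter members the highest values were Ahcyl2 for Ccnd3 (0.972), Erp29 for Cdk4 (0.966) and Faim for Cdkn1b (0.939). These correlations describe a pattern over 3 classes and carry no test.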

How the data were processed

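The authors deposited 1 table of raw UMI counts per library, whole numbers per gene and barcode with no normalization. Per the submitters' processing notes, Cell Ranger 2.1.0 and the mm10 build were used. The annotation and the rule that called cells were not given in the sources used here. Barcodes with at least 500 genes and under 10% mitochondrial UMIs were kept, and the cells with the highest Scrublet scores (scanpy 1.11.5) were removed as doublets at 0.8% per 1000 barcodes (340, 646 and 982 cells). Counts were summed per library and class, with at least 20 cells per sum. Sums were tested in edgeR 4.0.16 (R 4.3.3), quasi-likelihood, two-sided, with TMM factors, the filterByExpr filter and Benjamini-Hochberg adjustment over all genes. The library was a block, because the classes of a library come from the same suspension. The class markers were not tested. Ratios of single libraries use a prior count of 2. Thinning of cells drew UMIs at random with a fixed seed. Scripts were tested on simulated data.

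The members, lists and rules were chosen with earlier results of these data known. Genes outside the 7 are named where they had the largest called change of their list in a direction, were among the 3 most like a member, or overlap one. Tcf7l2 on the inducer list and markers fixed for cell types are named under the same rules. The count of columns left unused was 0. Alternatives were DESeq2 1.42.0, total counts as scaling, no low-count filter, other cell and class filters, thinned sums, no block, and leaving out each library.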

Additional observations from a re-analysis of the deposited data

Results flagged for a closer look

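The change of Cdkn1a with division went in opposite directions in basal and hormone-responsive cells in every library that had a value. In basal cells the log2 ratios of dividing to other cells were -1.26, -0.90 and -0.78 in libraries 1, 2 and 3, and in hormone-responsive cells they were 1.19 and 0.53 in libraries 2 and 3. The fitted difference between the classes was 2.00 on the log2 scale, with an unadjusted edgeR p of 0.00327 and an adjusted p of 0.518 over all genes, so it did not pass the correction. Its adjusted p ranged from 0.000217 to 0.946 over 9 alternatives. The hormone-responsive values rest on 12 and 24 UMIs, and this contrast was chosen after the values were seen.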

How the results depend on the processing

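Over 13 or 14 alternatives per result (8 or 9 for dividing hormone-responsive cells), the called differences between classes for Ccnd1, Cdk6 and Cdkn1a kept their direction and call. In luminal progenitor against hormone-responsive cells the number of members called was 1, and between 1 and 2 without each library in turn (Ccnd1 joined without library 3 and Cdkn1a without library 1). Genes called in dividing basal cells, 283, became 464 with no low-count filter, 481 with 2 UMIs of Top2a and Mki67 and 7 in thinned sums, and ranged from 82 to 402 without each library (82 without library 2, 114 without library 3). Members called there, 0, became 1 (Ccnd1) under DESeq2, total counts, no filter, no doublet removal and every barcode, and ranged from 0 to 1 without each library. In dividing progenitors, 460 genes became 14 in thinned sums and 297 among cells of 2000 to 6000 UMIs, and 253 to 472 without each library (253 without library 2). In dividing hormone-responsive cells, 12 genes became 35 under DESeq2, 68 with no filter, 6 with no doublet removal, 6 with every barcode, 1 in thinned sums and 32 without library 1. The tests of dividing effects between classes called 0 genes. For progenitor against basal cells this became 60 with no filter (1 member, Cdkn1a) and 0 to 10 without each library. For hormone-responsive against basal cells it became 5 under DESeq2, 43 with no filter (1 member, Cdkn1a), 1 without cells with UMIs of other types and 12 without library 1. Without the library as a block (no pairing), 460 became 302 and 12 became 2, and the block changed no call of a member.

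Direction turned, with no call in either fit, as follows. For Cdkn1b in basal against hormone-responsive cells the value was -0.0386 with total counts and -0.173 to 0.229 without each library. Between the luminal classes, Ccnd3 ranged from -0.474 to 0.0646 and Cdk4 from -0.0744 to 0.0026 without each library. In dividing basal cells, Ccnd2 was at -0.0197 with 2 UMIs. Ccnd3 was at -0.0291 without the block, -0.13 with 2 UMIs and -0.484 to 0.287 without each library. Cdk6 was at -0.0018 without cells with UMIs of other types and -0.18 at 2000 to 6000 UMIs. Cdkn1b ranged from -0.0351 to 0.415 without each library. In dividing progenitors at 2000 to 6000 UMIs, Ccnd1 was at -0.0523 and Cdkn1a at -0.0824. Ccnd3 was at 0.0861 with total counts, 0.15 with 2 UMIs and -0.19 to 0.156 without each library, and Cdk6 ranged from -0.478 to 0.021. The cause was not tested, except that thinned sums hold fewer UMIs and leave-outs fewer sums. Under DESeq2 the median of all genes in basal against progenitor cells was 0.08 in place of -0.10. The share of calls that were higher, 79.2% in dividing basal cells, was 90.7% under DESeq2 and 94.9% with total counts; in dividing progenitors, 76.3%, it was 88.8% with total counts; in dividing hormone-responsive cells, with 6 of 12 higher, it was 91.4% and 81.8%. Thinned sums lost Ccnd3, Cdk6 and Cdkn1b in the fit of dividing cells. Dividing hormone-responsive cells gave no value without library 2 or 3, under the stricter class rule, with 2 UMIs or at 2000 to 6000 UMIs, since too few libraries had 20 cells.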
